A study of Mus musculus with 12 samples.

Results

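Fibronectin and 8 integrin chains were followed through the first day in which naive mouse embryonic stem (ES) cells were turned towards epiblast. Their genes were taken by name from a table of 47729 genes: Fn1, Itga3, Itga5, Itga6, Itga9, Itgav, Itgb1, Itgb3 and Itgb5. All 9 were in the table. Of these, 8 were among the 13981 genes that reached 1 FPKM in at least 2 libraries and were tested, while Itgb3 stayed under that minimum. FPKM counts fragments per kilobase of a gene's exons after scaling for library depth, so levels can be set side by side between genes.

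The cells were of the E14Tg2a line (strain 129/Ola). In one genotype, delta 0.7 in the labels and delta here, both alleles lacked 0.7 kb of regulatory sequence of Tcf15, whose product is a transcription factor of the basic helix-loop-helix family. The other genotype was wild type (WT). The delta columns carry the name of 1 clone, so an effect of the deletion and one of the clone cannot be told apart. Delta and WT cells were both grown in N2B27 with 2i and LIF (0 h), then plated on fibronectin for 12 or 24 h, in N2B27 that held Activin, bFGF and KOSR. The study thus asked how the cells leave the naive state with and without that regulatory region. There were 2 libraries in each of the 6 groups. Nothing in the labels says that they came from separate cultures, so p-values cover only the spread between these libraries, which may be technical. In bulk samples, fewer cells of a type and less RNA per cell cannot be told apart.

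Integrins are receptors of an alpha and a beta chain that span the membrane and join the extracellular matrix to the actin cytoskeleton. The pairing sets what is bound. Alpha5 with beta1 is the classical fibronectin receptor, and alphav pairs with beta1, beta3 or beta5 and binds fibronectin or vitronectin. Alpha3 and alpha6 with beta1 are laminin receptors, and alpha9 with beta1 binds tenascin, osteopontin and a spliced segment of fibronectin. Fn1 codes for fibronectin itself, which the cells can make in addition to the protein on the plate. In the mouse embryo, loss of beta1 is lethal soon after implantation.

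Promoter sequences are shown for 2 genes that rose, Itga3 and Itga5, and for 2 that did not pass the test, Itgav and Itgb1. RefSeq windows (GRCm38.p6, 250 bases before to 50 after a start) were held for 6 of the 9 genes, in 7 windows. Each is printed 5′ to 3′ on the strand of its gene. Capitals mark the E-box, CANNTG, the letters that basic helix-loop-helix factors bind, which read the same on both strands. The windows lie at chr11:95076665-95076964 on the minus strand for Itga3, chr15:103366742-103367041 on the minus strand for Itga5, chr2:83724147-83724446 on the plus strand for Itgav and chr8:128685404-128685703 on the plus strand for Itgb1.
Itga3: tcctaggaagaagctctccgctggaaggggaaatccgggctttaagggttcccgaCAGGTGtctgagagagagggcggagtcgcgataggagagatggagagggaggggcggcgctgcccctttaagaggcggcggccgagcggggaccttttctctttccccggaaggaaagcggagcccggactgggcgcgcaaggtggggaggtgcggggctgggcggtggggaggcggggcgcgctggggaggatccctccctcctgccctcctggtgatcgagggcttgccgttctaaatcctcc
Itga5: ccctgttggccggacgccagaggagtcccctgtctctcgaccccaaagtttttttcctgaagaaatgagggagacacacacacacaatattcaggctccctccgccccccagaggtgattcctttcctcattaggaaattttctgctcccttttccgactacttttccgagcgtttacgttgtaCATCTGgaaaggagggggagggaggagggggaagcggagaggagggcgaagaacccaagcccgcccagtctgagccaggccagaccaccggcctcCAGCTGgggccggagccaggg
Itgav: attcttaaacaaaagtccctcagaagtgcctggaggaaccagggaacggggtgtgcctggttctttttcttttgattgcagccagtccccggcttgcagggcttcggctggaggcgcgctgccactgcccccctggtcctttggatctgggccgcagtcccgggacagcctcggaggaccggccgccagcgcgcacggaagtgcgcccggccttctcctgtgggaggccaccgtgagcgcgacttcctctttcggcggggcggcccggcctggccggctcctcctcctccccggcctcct
Itgb1: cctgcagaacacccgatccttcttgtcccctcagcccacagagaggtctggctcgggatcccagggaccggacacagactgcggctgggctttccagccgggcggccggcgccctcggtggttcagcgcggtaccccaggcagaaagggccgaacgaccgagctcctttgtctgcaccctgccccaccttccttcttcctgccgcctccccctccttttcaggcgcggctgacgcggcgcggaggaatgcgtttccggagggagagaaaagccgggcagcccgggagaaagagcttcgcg

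The Itga3 window printed held 1 E-box and the Itga5 window held 2, while those of Itgav and Itgb1 held 0. An E-box was present in 5 of the 7 windows, among them that of Itgb5, which held 3 and whose gene did not pass the test. Of all 32851 windows of this length in the RefSeq table, 72.3% held an E-box. The GC box GGGCGG, searched on both strands, occurred 3 times in the Itga3 window, 2 times in that of Itga5 and 1 time each in those of Itgav and Itgb1. It was present in 35.7% of all windows and shared 0 bases with an E-box in these 4.

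The libraries held 9741442 to 17571818 reads, as recovered from the steps of the FPKM values. Pou5f1, a core pluripotency factor, lay between 535 and 1111 FPKM in the 12 libraries, and Sox2 between 213 and 342 FPKM. Other pluripotency markers did not hold their level. Nanog averaged 336 FPKM at 0 h and 32.3 FPKM at 24 h in delta cells, against 309 and 65.9 FPKM in WT cells. The means of Esrrb, Klf4 and Zfp42 were also lower at 24 h than at 0 h in both genotypes. Otx2, a factor of the forming epiblast, averaged 3.75, 30.9 and 65.7 FPKM in delta cells at 0, 12 and 24 h, against 3.23, 20.2 and 42.4 FPKM in WT cells. Tcf15 averaged 1.60, 1.05 and 3.60 FPKM in delta cells at the same times, against 6.31, 43.0 and 77.4 FPKM in WT cells. The replicate 1 libraries at 0 h stood apart. Ribosomal protein genes took 13.4% of reads in that of delta and 11.4% in that of WT, against 5.73% to 7.50% in the other 10 libraries. Replicates differed on the log2 scale with an SD of 0.83 (delta) and 0.66 (WT) at 0 h, against 0.31 to 0.42 after induction.

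A second set of libraries, the 3 WT libraries of replicate 1, carried smooth muscle and fibroblast transcripts. Tagln, which codes for transgelin of smooth muscle, had 0.281 to 1.33 FPKM in the delta libraries, 7.84, 21.1 and 15.2 FPKM in these WT libraries at 0, 12 and 24 h, and 1.16 to 2.91 FPKM in the WT libraries of replicate 2. Acta2, smooth muscle actin, had at most 0.416 FPKM in the delta libraries, 5.21, 14 and 13.5 FPKM in the WT libraries of replicate 1 and at most 1.19 FPKM in those of replicate 2. Of 20 fibroblast and mesenchymal markers, 2 to 6 reached 1 FPKM in delta libraries, 8 to 11 in WT libraries of replicate 1 and 3 to 7 in those of replicate 2. Their summed level was 36.3 to 173 FPKM in delta libraries, 97.4 to 189 FPKM in WT libraries of replicate 1 and 44.5 to 107 FPKM in those of replicate 2. The fibroblast marker S100a4 was at 0 in 11 of the 12 libraries. The part of these transcripts in the integrin levels was not tested.

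Before induction the fibronectin transcript was the most abundant of the 9 and 3 alpha chains were scarce. At 0 h the order by mean FPKM was Fn1, Itgb1, Itgb5, Itga6, Itgav, Itga5, Itga3, Itga9 and Itgb3 in delta cells and in WT cells. Neighbours whose libraries overlapped were Fn1 and Itgb1 (delta cells), Itgb5 and Itga6 (both genotypes), Itga5 and Itga3 (both), and Itga9 and Itgb3 (WT). By 24 h Itga3 had moved up to the third place in both genotypes, next to Itgb1, whose libraries it overlapped, and in WT cells it overlapped with Itga6 in the fourth place as well.

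**Figure D1:**
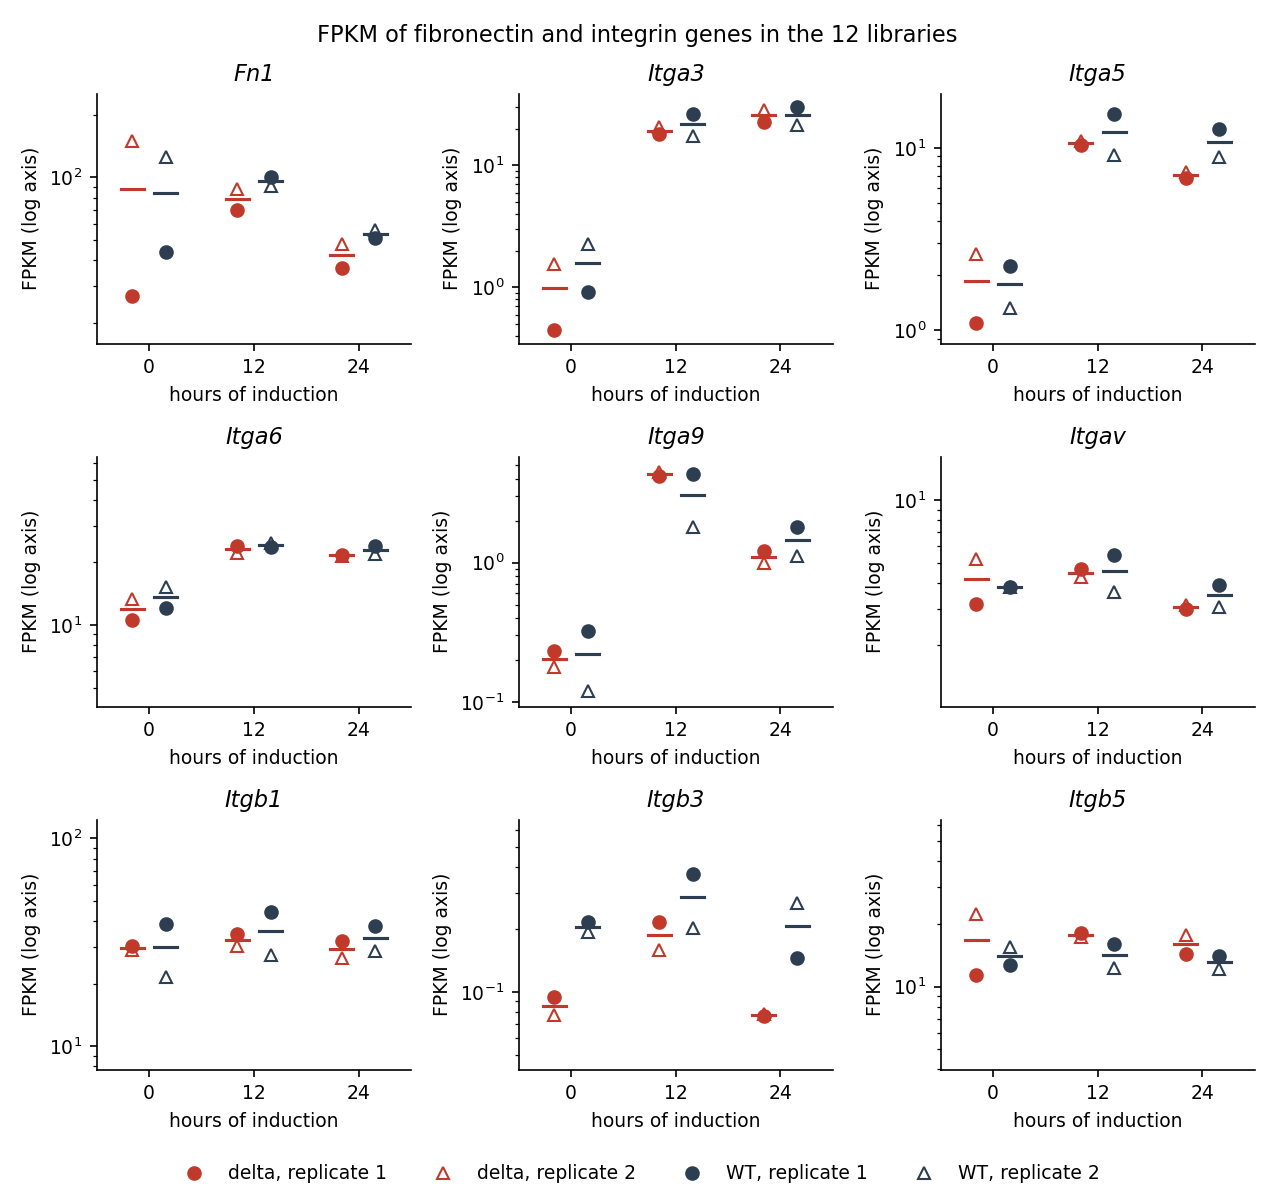
FPKM on log axes of the 9 genes in each of the 12 libraries, by hours of induction; red is delta, dark blue is WT, filled circles are replicate 1, open triangles are replicate 2 and bars are means of the 2 libraries. Itga3 lies at 0.449 to 2.26 FPKM at 0 h and at 17.3 to 29.9 FPKM at the later times, while the Itgb1 libraries lie between 21.5 and 44.2 FPKM throughout.

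The alpha chain genes Itga3, Itga5, Itga6 and Itga9 rose in the first 12 h in delta and in WT cells, and the 2 laminin receptor chains and the fibronectin receptor chain among them were still higher at 24 h. Fn1, Itgav, Itgb1 and Itgb5 passed the test in no comparison over time. Itga9 reached 1 FPKM in 0 of the 4 libraries at 0 h and was tested only through the later groups, so it is left out of the counts. In delta cells 3 of the other 7 tested genes rose by 12 h and 3 by 24 h. All tested genes, also those tested only through the later groups, served as the background. Of these, 3.55% were higher and 3.45% lower at 12 h in delta cells, with 7.58% higher and 7.80% lower at 24 h. In WT cells 3 of these 7 rose by 12 h and 3 of 7 by 24 h, against 2.13% and 5.27% of all tested genes, of which 1.90% and 4.94% fell. The test was limma on log2(FPKM + 1), with p-values adjusted over all tested genes and a threshold of 0.05. A pseudocount of 1 understates the change of genes near 1 FPKM.

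Itga3, the alpha chain of a laminin receptor, changed most. The gene (ENSMUSG00000001507) spans chr11:95044474-95076801 on the minus strand. It had 0.449 and 1.55 FPKM in the delta libraries at 0 h, 17.9 and 20.7 at 12 h, and 22.6 and 28.7 at 24 h. In WT libraries it had 0.916 and 2.26 FPKM at 0 h, 26.2 and 17.3 at 12 h, and 29.9 and 21.6 at 24 h. All libraries at 12 and 24 h thus lay above all at 0 h, and delta and WT overlapped at each time. The mean in delta cells was 19.4 times the 0 h mean at 12 h and 25.7 times at 24 h, against 13.7 and 16.2 times in WT cells. These ratios rest on low 0 h levels: against a single 0 h library the 24 h ratio was 16.6 or 57.1 times in delta cells and 11.4 or 28.1 times in WT cells. On the log2 scale the rise by 12 h was 3.40 ± 0.35 (SE, adjusted p = 0.00105) in delta cells and 3.158 ± 0.35 (adjusted p = 0.00228) in WT cells. By 24 h it was 3.79 ± 0.35 (adjusted p = 0.000245) in delta cells and 3.40 ± 0.35 (adjusted p = 0.000543) in WT cells. Without the 3 WT libraries of replicate 1, the WT rise was 2.49 at 12 h (adjusted p = 0.188) and 2.79 at 24 h (adjusted p = 0.0590), with 1 library left in each WT group.

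Itga5, the alpha chain of the fibronectin receptor (ENSMUSG00000000555, chr15:103344286-103366763, minus strand), started at a similarly low level and rose as well. It had 1.09 and 2.61 FPKM in delta libraries at 0 h, 10.4 and 10.9 at 12 h, and 6.84 and 7.44 at 24 h. WT libraries had 2.25 and 1.33 FPKM at 0 h, 15.3 and 9.15 at 12 h, and 12.8 and 8.88 at 24 h. Both delta libraries at 24 h lay below both at 12 h, while the WT libraries of these times overlapped. The rise by 12 h was 2.08 ± 0.33 on the log2 scale (SE, adjusted p = 0.00694) in delta cells and 2.22 ± 0.33 (adjusted p = 0.0067) in WT cells. By 24 h it was 1.56 ± 0.33 (adjusted p = 0.0127) in delta cells and 2.08 ± 0.33 (adjusted p = 0.00414) in WT cells. The calls in delta cells were lost when either delta library of the later time was left out (adjusted p 0.0637 to 0.0913). The WT call at 12 h was lost without the WT 12 h library of replicate 1 (adjusted p = 0.0739), and both WT calls without the 3 WT libraries of replicate 1 (adjusted p 0.218 at 12 h and 0.0924 at 24 h), where the changes were 2.12 and 2.08.

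Itga6, the other laminin receptor chain, had the highest level of the alpha chains at 0 h and rose less. The gene (ENSMUSG00000027111) spans chr2:71745616-71858416 on the plus strand. Delta libraries had 10.6 and 13.3 FPKM at 0 h, 23.9 and 22.3 at 12 h, and 21.6 and 21.6 at 24 h. WT libraries had 12.1 and 15.2 FPKM at 0 h, 23.8 and 24.7 at 12 h, and 24.0 and 22.0 at 24 h. The groups at 12 and 24 h did not overlap with 0 h in either genotype, and the increases at 12 h were 1.93 times in delta cells and 1.78 times in WT cells. The rise by 12 h was 0.90 ± 0.18 on the log2 scale (SE, adjusted p = 0.0175) in delta cells and 0.79 ± 0.18 (adjusted p = 0.0402) in WT cells. By 24 h it was 0.81 ± 0.18 (adjusted p = 0.0149) in delta cells and 0.72 ± 0.18 (adjusted p = 0.0326) in WT cells. Each WT call was held in 3 of the 12 fits that leave out 1 library, those without WT 0 h replicate 2 or either delta 0 h library, and each delta call depended on both delta libraries of its later time. Without the 3 WT libraries of replicate 1 the adjusted p was 0.0793 and 0.0639 at 12 and 24 h in delta cells, whose changes are the same there, and 0.692 and 0.570 in WT cells, whose changes were 0.67 and 0.51.

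Itga9, the chain that binds tenascin and osteopontin, peaked at 12 h. The gene (ENSMUSG00000039115) spans chr9:118606690-118901003 on the plus strand, and 12 to 25 reads at 0 h stood behind its values. Delta libraries had 0.232 and 0.178 FPKM at 0 h, 4.15 and 4.44 at 12 h, and 1.21 and 0.996 at 24 h. WT libraries had 0.321 and 0.120 FPKM at 0 h, 4.34 and 1.80 at 12 h, and 1.79 and 1.12 at 24 h. All 8 later libraries lay above all 4 at 0 h, and in both genotypes both libraries at 24 h lay below both at 12 h. Since the gene was tested only because it was high at the later times, its rise is given as a value and not as support. The rise by 12 h was 2.14 ± 0.29 on the log2 scale (SE, adjusted p = 0.00407) in delta cells and 1.67 ± 0.29 (adjusted p = 0.0149) in WT cells. The WT call was lost without the WT 12 h library of replicate 1 (adjusted p = 0.0848), without either WT 0 h library (0.0518 and 0.0692), and without the 3 WT libraries of replicate 1 (0.216).

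At 24 h Itga9 did not pass the test against 0 h, with a difference of 0.80 ± 0.29 (SE, adjusted p = 0.101) in delta cells and 1.00 ± 0.29 (adjusted p = 0.063) in WT cells. With the replicate number as a block the WT difference passed (adjusted p = 0.0288) and that in delta cells did not (adjusted p = 0.0510). With a pseudocount of 0.1 both passed, at 1.98 (adjusted p = 0.0264) in delta cells and 2.32 (adjusted p = 0.0173) in WT cells, and with voom weights on recovered reads, at 2.44 (adjusted p = 0.0276) in delta cells and 2.87 (adjusted p = 0.0205) in WT cells. Both also passed when either WT 12 h library was left out (adjusted p 0.0402 and 0.0410 in delta cells, 0.0222 and 0.0227 in WT cells). Against 12 h the difference at 24 h was -1.34 ± 0.29 in delta cells (adjusted p = 0.0727, or 0.0310 with the block). In WT cells it was -0.67 ± 0.29 (adjusted p = 0.625, or 0.337 with the block).

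**Figure D2:**
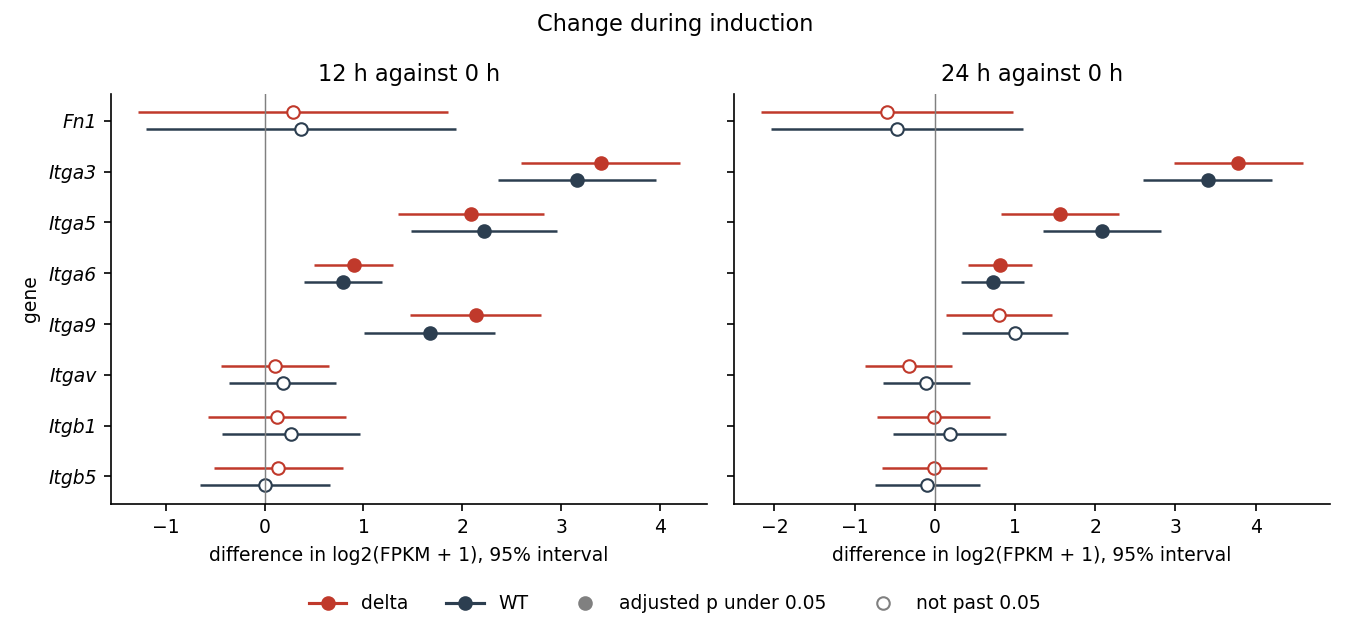
Differences in log2(FPKM + 1) between 12 h and 0 h (left) and 24 h and 0 h (right) for the 8 tested genes, with delta in red above WT in dark blue; bars are 95% intervals from the limma fit and filled points have an adjusted p under 0.05. Itga3 lies farthest from 0, at 3.79 in delta cells and 3.40 in WT cells at 24 h, and the intervals of Fn1, Itgav, Itgb1 and Itgb5 hold 0.

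Itgb1, the beta chain shared by the laminin and fibronectin receptors, had the highest mean of the integrin transcripts in all 6 groups. The gene (ENSMUSG00000025809) spans chr8:128685654-128733200 on the plus strand. Delta libraries had 30.2 and 29.1 FPKM at 0 h, 34.7 and 30.2 at 12 h, and 32.3 and 26.7 at 24 h. WT libraries had 38.8 and 21.5 FPKM at 0 h, 44.2 and 27.5 at 12 h, and 38.0 and 28.6 at 24 h. All groups overlapped across times, and the WT library of replicate 1 was the higher at each time. The change by 24 h was -0.02 on the log2 scale in delta cells (95% interval -0.72 to 0.68) and 0.18 in WT cells (-0.52 to 0.88).

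Itgav, whose chain binds the RGD motif of fibronectin and vitronectin, stayed within a narrow range. The gene (ENSMUSG00000027087, chr2:83724397-83806916, plus strand) shares 634 exonic bases with Gm13684 on the other strand. Delta libraries had 3.17 and 5.21 FPKM at 0 h, 4.67 and 4.27 at 12 h, and 2.998 and 3.12 at 24 h. WT libraries had 3.82 and 3.82 FPKM at 0 h, 5.47 and 3.62 at 12 h, and 3.92 and 3.07 at 24 h. The delta libraries at 24 h lay below those at 0 and 12 h, but no change passed the test, and by 24 h the difference was -0.33 in delta cells (95% interval -0.87 to 0.22) and -0.11 in WT cells (-0.65 to 0.44).

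Itgb5, a partner of alphav in a vitronectin receptor, had 11.3 and 22.4 FPKM in delta libraries at 0 h, 18.1 and 17.2 at 12 h, and 14.3 and 17.6 at 24 h. Its gene (ENSMUSG00000022817) spans chr16:33829665-33949338 on the plus strand. WT libraries had 12.7 and 15.5 FPKM at 0 h, 15.97 and 12.3 at 12 h, and 14.05 and 12.1 at 24 h. The groups overlapped across times, and the difference by 24 h was -0.01 in delta cells (95% interval -0.66 to 0.65) and -0.10 in WT cells (-0.75 to 0.56).

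Itgb3, the beta chain of the platelet and endothelial RGD receptors (ENSMUSG00000020689, chr11:104608000-104670476, plus strand), had 5 to 38 reads in a library. Delta libraries had 0.0945 and 0.0772 FPKM at 0 h, 0.218 and 0.160 at 12 h, and 0.0770 and 0.0787 at 24 h. WT libraries had 0.217 and 0.195 FPKM at 0 h, 0.370 and 0.204 at 12 h, and 0.146 and 0.269 at 24 h. The delta library was lower than the WT library of the same number and time in 6 of 6 pairs, and the gene was below the level tested.

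Fn1 was abundant throughout and its course from 0 h depended on the library pair. The gene (ENSMUSG00000026193) spans chr1:71585520-71653200 on the minus strand, with 11685 exonic bases, of which 292 overlap the exons of Apol7d on the other strand. Delta libraries had 26.9 and 149 FPKM at 0 h, 69.4 and 88.0 at 12 h, and 36.6 and 47.9 at 24 h. WT libraries had 43.7 and 125 FPKM at 0 h, 101 and 90.9 at 12 h, and 51.1 and 55.7 at 24 h. The replicates lay far apart at 0 h alone, where replicate 1 was the lower in both genotypes. In replicate 1 Fn1 was higher at 12 h than at 0 h, by 1.33 (delta) and 1.19 (WT) on the log2 scale, and in replicate 2 it was lower, with -0.75 (delta) and -0.46 (WT). No change from 0 h passed the test (adjusted p 0.600 to 0.819).

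Long transcripts were lower in the 0 h libraries of replicate 1. Among the 741 tested genes with 10 kb or more of exon, Fn1 among them, the median log2 difference of replicate 1 minus replicate 2 at 0 h was -0.70 in delta cells and -0.46 in WT cells. For the 4359 genes under 2 kb it was 0.29 in delta cells and 0.20 in WT cells, and at 12 and 24 h the medians of all length classes lay between -0.15 and 0.09. The difference of Fn1 at 0 h was -2.43 in delta cells and -1.498 in WT cells. Itgav also has over 10 kb of exon, and Itga3, Itga6 and Itga9 lie in the class of 5 to 10 kb. The median of that class at 0 h was -0.36 in delta cells and -0.20 in WT cells. The part of transcript length in the values of Fn1 and of these integrin genes was not tested. Leaving out both 0 h libraries of replicate 1 leaves 1 library in each 0 h group. Fn1 at 24 h then differed from 0 h by -1.81 in delta cells and -1.22 in WT cells. At 12 h it differed by -0.92 in delta cells and -0.39 in WT cells. Without the delta 0 h library of replicate 1 alone the 24 h difference in delta cells was -1.81, and without that of replicate 2 the 12 h difference was 1.503.

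From 12 to 24 h Fn1 was lower in every pair of libraries. The difference was -0.90 and -0.86 in the delta pairs and -0.96 and -0.70 in the WT pairs, and the groups did not overlap. In the fit it was -0.88 ± 0.70 (SE, adjusted p = 0.909) in delta cells and -0.83 ± 0.70 (adjusted p = 1.00) in WT cells. No 0 h library enters these differences. Leaving out the 0 h libraries of replicate 1 changes only the spread that they are tested against. In that interval 0 of the 8 tested genes were called in either genotype, against 1.36% of all tested genes in delta cells and 0.408% in WT cells.

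**Figure D3:**
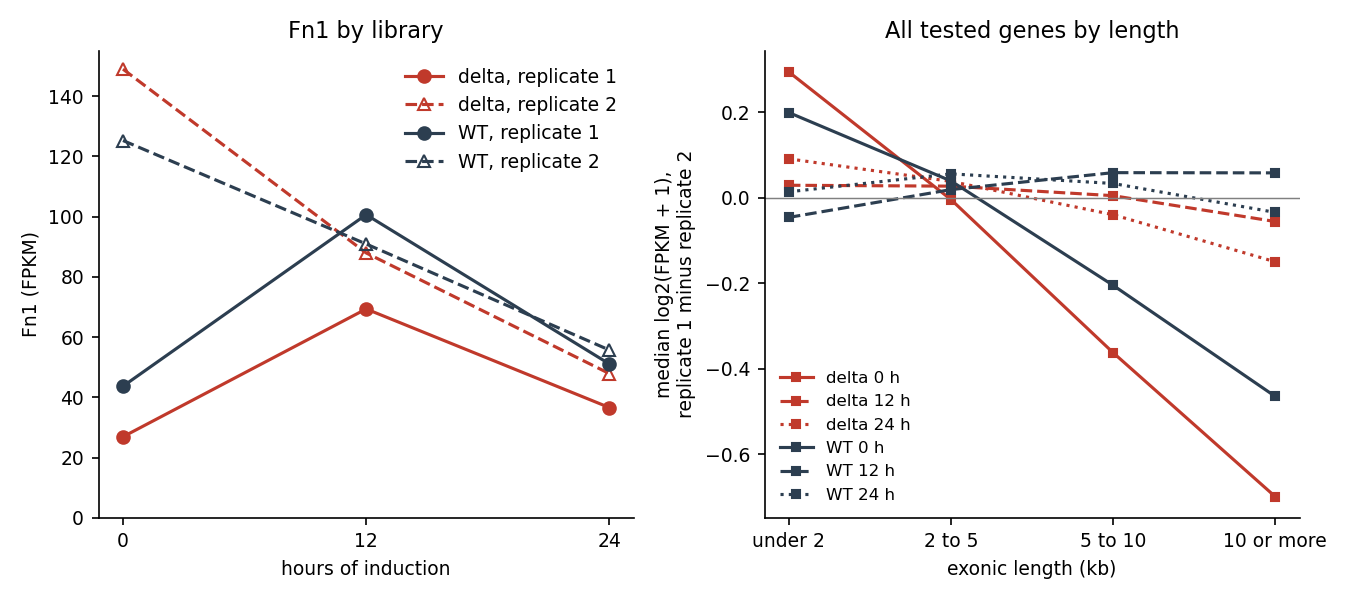
Left, Fn1 in FPKM by hours of induction, with a line for each genotype and replicate number. Right, median log2 difference of replicate 1 minus replicate 2 over all tested genes in 4 classes of exonic length, for each group; the 0 h lines fall with length to -0.70 (delta) and -0.46 (WT), and the Fn1 lines of replicate 1 start below those of replicate 2.

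The make-up of the alpha chain pool changed while Itgb1 did not pass the test. The pool holds chains that do not depend on beta1 alone, such as alphav, so its ratio to Itgb1 is not one between partners. The FPKM of the 18 alpha chain genes in the table summed to 21.8 ± 5.69 in delta cells at 0 h, 65.2 ± 1.06 at 12 h and 61.7 ± 5.06 at 24 h (SD, n = 2). In WT cells the sums were 23.4 ± 2.38, 69.2 ± 13.6 and 67.9 ± 10.9 FPKM. The sum was 0.736, 2.02 and 2.13 times the level of Itgb1 in delta cells at 0, 12 and 24 h, against 0.864, 1.97 and 2.05 times in WT cells. The libraries at 0 h lay at 0.587 and 0.886 times in delta cells and 0.559 and 1.17 times in WT cells, below all those at 12 and 24 h (1.78 to 2.45 times). The lower 0 h value in each genotype was that of replicate 1, where long transcripts were lower. Itga6, Itga3 and Itgav have 9025, 5710 and 10744 exonic bases, against 4081 for Itgb1. The part of transcript length in this ratio was not tested. Levels of mRNA do not give the number of receptors.

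Itga6 made up 55.6% of the alpha sum in delta cells at 0 h and 35.4% and 35.1% at 12 and 24 h, against 58.1%, 35.8% and 34.2% in WT cells. Itga3 made up 4.26%, 29.6% and 41.4% in delta cells, against 6.61%, 31.1% and 37.7% in WT cells, so that by 24 h it had the largest mean share in both. In WT cells at 24 h its libraries (35.9% and 39.5%) overlapped with those of Itga6 (31.8% and 36.6%). Itga5 made up 8.14%, 16.4% and 11.6% in delta cells and 7.85%, 17.4% and 15.8% in WT cells. Itgav made up 19.0%, 6.85% and 4.96% in delta cells and 16.4%, 6.50% and 5.14% in WT cells. Of the beta sum of 8 genes, Itgb1 made up 50.7% to 69.4% in delta libraries and 52.0% to 71.3% in WT libraries. Itgb5 made up 25.9% to 38.9% in delta libraries and 23.2% to 37.6% in WT libraries.

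**Figure D4:**
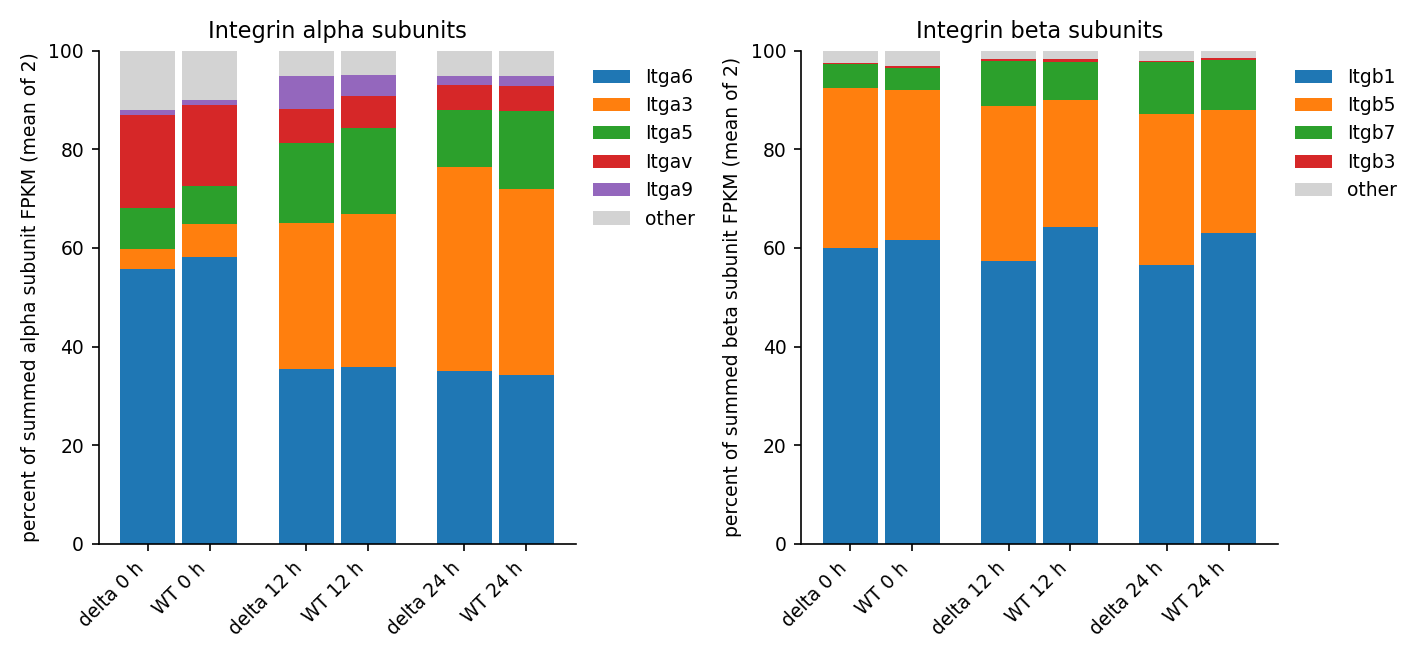
Percent of summed FPKM taken by each alpha chain gene (left, 18 genes) and each beta chain gene (right, 8 genes), as the mean of 2 libraries in each group, with delta left of WT at each time. Itga3 takes 4.26% (delta) and 6.61% (WT) at 0 h and 41.4% and 37.7% at 24 h, while Itgb1 takes 56.5% to 64.2% of the beta sum in all groups.

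No difference between delta and WT cells in the 8 tested genes passed the test. In delta against WT cells 0 of the 8 were called at 0 h, 12 h, 24 h or averaged over times, against 0.00715%, 0.0143%, 0.00715% and 0.0143% of all tested genes. The difference averaged over times was -0.28 for Fn1 (95% interval -1.19 to 0.62), -0.17 for Itga3 (-0.63 to 0.29) and -0.22 for Itga5 (-0.65 to 0.21). It was -0.11 for Itga6 (-0.34 to 0.12), 0.08 for Itga9 (-0.31 to 0.46) and -0.02 for Itgav (-0.34 to 0.29). For Itgb1 it was -0.08 (-0.48 to 0.33) and for Itgb5 0.25 (-0.13 to 0.63), with the delta library higher in 5 of 6 pairs of the same number and time. The delta library was lower in 5 of 6 pairs for Fn1 and for Itga6, and in 3 or 4 of 6 for the other 5. These intervals leave room for differences of up to 1.19 log2 units for Fn1 and up to 0.65 for the other 7. Itga5 at 24 h had 6.84 and 7.44 FPKM in delta cells and 12.8 and 8.88 FPKM in WT cells, without overlap, a difference of -0.52 (95% interval -1.26 to 0.22).

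The size of the rises was also compared between genotypes. The genotype difference in the 12 h change was 0.24 for Itga3 (95% interval -0.89 to 1.37), -0.14 for Itga5 (-1.19 to 0.90), 0.11 for Itga6 (-0.45 to 0.67) and 0.47 for Itga9 (-0.47 to 1.40). Neither in the 12 h nor in the 24 h change did limma call any of the 13981 genes (0 calls each, with 86 and 138 genes at an unadjusted p under 0.05). With limma's voom weights on the recovered reads it called 0 as well (75 and 121 at an unadjusted p under 0.05).

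**Figure D5:**
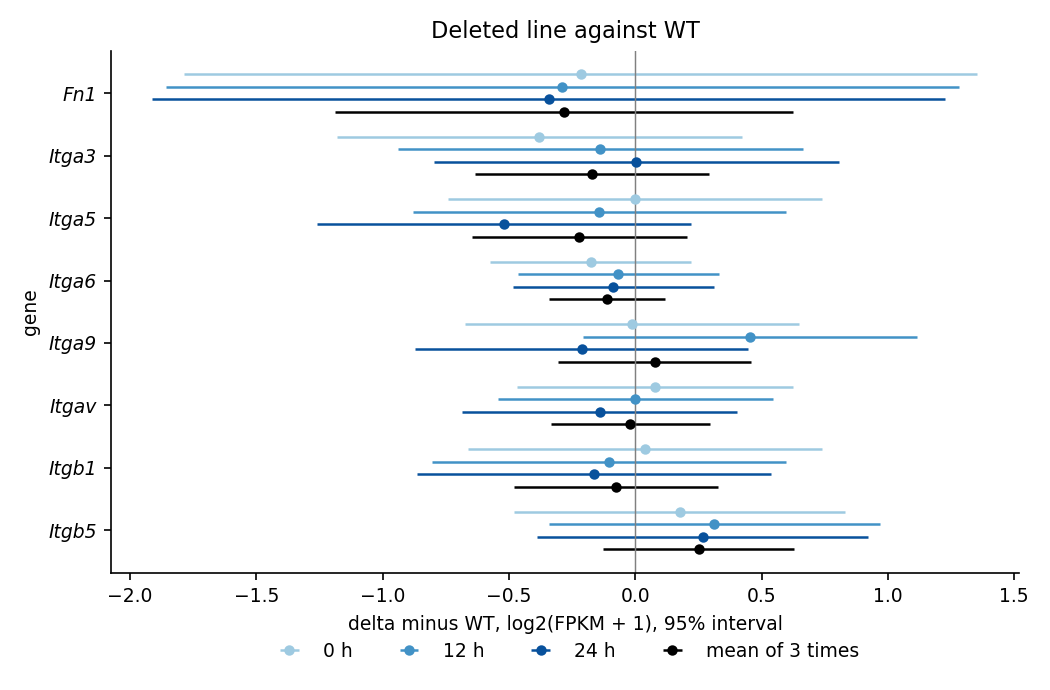
Delta minus WT differences in log2(FPKM + 1) of the 8 tested genes at 0, 12 and 24 h (shades of blue) and averaged over the 3 times (black), with 95% intervals from the limma fit. Every interval holds 0, and those of Fn1 are the widest.

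Among 18 further alpha and beta chain genes 4 reached the level tested, and Itga1, a collagen receptor chain, alone was called. Like Itga9 it was tested only through the later groups, so its change is given as a value and supports no count, and 0 of the other 3 were called. It averaged 0.0141 ± 0.00645, 1.48 ± 0.123 and 0.680 ± 0.0663 FPKM in delta cells at 0, 12 and 24 h (SD, n = 2), against 0.0715 ± 0.00778, 1.27 ± 0.402 and 0.906 ± 0.156 FPKM in WT cells. Like that of Itga9, its mean was highest at 12 h. The rise by 12 h was 1.29 ± 0.19 on the log2 scale (SE, adjusted p = 0.00504) in delta cells and 1.07 ± 0.19 (adjusted p = 0.0146) in WT cells. By 24 h it was 0.73 ± 0.19 (adjusted p = 0.0302) in delta cells and 0.83 ± 0.19 (adjusted p = 0.0231) in WT cells. Itgb7, a beta chain known from lymphocytes, averaged 2.54, 5.20 and 5.57 FPKM in delta cells and 2.08, 4.32 and 5.45 FPKM in WT cells, and did not pass the test (adjusted p 0.0982 to 0.311 against 0 h). Itgae (0.449 to 0.936 FPKM) and Itgb4 (0.522 to 1.35 FPKM in group means) did not pass it either.

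Of 41 genes of the adaptor proteins that tie integrins to actin and to kinases, 33 were tested, of which 4 (Fermt3, Ptk2b, Tns2 and Flnc) did not reach the minimum in the 0 h libraries. Among the other 29, in delta cells 3 rose by 12 h and 3 by 24 h, against 3.55% and 7.58% of all tested genes. In WT cells 1 rose by 12 h and 1 by 24 h, against 2.13% and 5.27% of all tested genes, and 0 fell in either genotype. The 24 h shares were not above the background by more than 1 gene. The background also holds genes tested only through later groups, so the shares come from unlike filters and no conclusion is drawn from them. The median change of the 33 by 24 h was 0.29 in delta cells and 0.27 in WT cells, against -0.05 and -0.03 over all tested genes. The 4 genes that did not reach the minimum at 0 h are in this median, so it is a value that supports no shift. Bcar1, the scaffold p130Cas phosphorylated at adhesion sites, averaged 57.8 ± 1.03 FPKM at 24 h against 7.09 ± 4.36 FPKM at 0 h in delta cells (SD, n = 2; change 2.97, adjusted p = 0.000619). In WT cells it averaged 52.8 ± 5.79 against 8.22 ± 1.72 FPKM (change 2.55, adjusted p = 0.00181). Ptk2b and Flnc were tested only through the later groups, with means of 0.114 to 0.705 FPKM at 0 h, and their changes are values that support no count. Ptk2b, a kinase related to focal adhesion kinase, rose by 24 h by 1.83 (adjusted p = 0.00248) in delta cells and 1.52 (adjusted p = 0.00805) in WT cells.

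Flnc, a filamin that crosslinks actin, rose by 24 h by 2.48 (adjusted p = 0.00302) in delta cells and 2.02 (adjusted p = 0.0109) in WT cells. Its WT libraries were spread widely, with a mean of 4.38 ± 1.98 FPKM (SD, n = 2) at 24 h. Actn4, an alpha-actinin, averaged 141 ± 11.4 FPKM at 24 h against 42.5 ± 17.8 FPKM at 0 h in delta cells (change 1.77, adjusted p = 0.0108). In WT cells it averaged 149 ± 7.51 against 64.2 ± 32.5 FPKM, which did not pass (change 1.301, adjusted p = 0.0512).

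Of 37 ligand gene names, which hold both names of Ctgf (Ccn2) and of Cyr61 (Ccn1), 35 were in the table and 23 were tested. In delta cells 1 was higher at 12 h, a share near the 3.55% of all tested genes, and at 24 h 4 were higher and 4 lower, against 7.58% and 7.80%. In WT cells 1 was higher at 12 h and 3 were lower at 24 h, against 2.13% and 4.94%. Of the 4 that were higher in delta cells at 24 h, 3 (Lama3, Thbs1 and Emilin1) did not reach the minimum in the 0 h libraries. Spp1, which codes for osteopontin, a ligand of alphav and alpha9 receptors, averaged 69.3 ± 14.1 FPKM at 24 h against 315 ± 128 FPKM at 0 h in delta cells (SD, n = 2; change -2.12, adjusted p = 0.00253). In WT cells it averaged 96.0 ± 6.07 against 266 ± 81.1 FPKM (change -1.43, adjusted p = 0.0216).

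The laminin chain gene Lama1 and the linker gene Nid1, both of the basement membrane, were lower at 24 h than at 0 h. Laminin chain genes differed: in delta cells Lamb2 averaged 10.2 FPKM at 0 h and 1.95 FPKM at 24 h, and Lamc1 41.5 and 41.2 FPKM. Nid1 changed by -1.88 by 24 h (adjusted p = 0.0132) in delta cells and by -1.61 (adjusted p = 0.0342) in WT cells. By 12 h, when Itga3 and Itga6 had risen, Nid1 had changed by only -0.01 in delta cells and -0.10 in WT cells. Lama1 had by then changed by -2.17 in delta cells (adjusted p = 0.147) and -1.84 in WT cells (adjusted p = 0.292). Lama1 averaged 0.571 ± 0.181 FPKM at 24 h against 22.4 ± 24.8 FPKM at 0 h in delta cells (SD, n = 2; adjusted p = 0.0244). In WT cells it averaged 0.936 ± 0.511 against 18.6 ± 14.5 FPKM (adjusted p = 0.0395), and the 0 h libraries of both genotypes were spread widely. Lama1 did not reach the minimum in the 24 h libraries, so it was tested through the earlier ones, where it was high. Emilin1 and Lama3, tested only through groups where they were high, are given as values. In delta cells at 24 h Emilin1 changed by 0.72 (adjusted p = 0.0295) and Lama3 by 0.96 (adjusted p = 0.0140). In WT cells Emilin1 changed by 0.66 (adjusted p = 0.0529) and Lama3 by 0.55 (adjusted p = 0.134).

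Among 16 gene names of membrane proteins that bind integrins, with Slc3a2 listed also as Cd98hc, 15 were in the table and 11 were tested. In delta cells 1 was higher and 1 lower at 12 h, while 1 was higher and 3 lower at 24 h. In WT cells 1 was higher at 12 h, while 1 was higher and 2 lower at 24 h. The shares of all tested genes higher and lower were 3.55% and 3.45% at 12 h and 7.58% and 7.80% at 24 h in delta cells, against 2.13% and 1.90% at 12 h and 5.27% and 4.94% at 24 h in WT cells. Plaur, the urokinase receptor, averaged 1.66, 10.6 and 6.35 FPKM in delta cells at 0, 12 and 24 h, against 1.36, 11.6 and 7.51 FPKM in WT cells. Its rise by 12 h was 2.12 (adjusted p = 0.00649) in delta cells and 2.39 (adjusted p = 0.00508) in WT cells. The tetraspanin gene Cd9 averaged 46.8 ± 5.71 FPKM at 24 h against 266 ± 144 FPKM at 0 h in delta cells (SD, n = 2; change -2.37, adjusted p = 0.00238). In WT cells it averaged 50.9 ± 5.92 against 199.6 ± 59.0 FPKM (change -1.92, adjusted p = 0.00865). Cd63, another tetraspanin gene, fell by 24 h by 2.10 (adjusted p = 0.0120) in delta cells and by 1.63 (adjusted p = 0.0456) in WT cells. Cd81 fell by 0.99 (adjusted p = 0.0214) in delta cells and changed by -0.63 (adjusted p = 0.132) in WT cells.

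The genes whose course over the 12 libraries was most like that of each member were sought among 7001 tested genes with a mean of at least 5 FPKM. Likeness was the root mean square difference between log2(FPKM + 1) profiles, each centred on its own mean. The libraries share the depth and length differences described above, and the difference is a description. For Itga3 the nearest were the long noncoding RNA gene Halr1 (0.213) and Rarg, a retinoic acid receptor (0.283), against a spread of Itga3 about its own mean of 1.65. Halr1 averaged 0, 8.77 and 12.4 FPKM in delta cells at 0, 12 and 24 h, against 0.196, 8.91 and 12.0 FPKM in WT cells. The pseudocount of 1 shrinks changes from such low levels, so likeness to Itga3 does not hold for ratios of FPKM. Rarg averaged 7.70, 67.4 and 70.7 FPKM in delta cells at 0, 12 and 24 h, against 7.33, 62.6 and 69.5 FPKM in WT cells. For Itga5 the nearest were Plaur (0.241) and Trib1 (0.288), a pseudokinase gene, against a spread of 0.99. Trib1 averaged 1.73, 13.2 and 9.55 FPKM in delta cells and 2.36, 13.9 and 10.9 FPKM in WT cells.

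For Itga9 the nearest were Tubb2a (0.330), a beta-tubulin gene, and Spire2 (0.337), an actin nucleator gene, against a spread of 0.82. In delta cells Tubb2a averaged 17.7, 46.4 and 27.6 FPKM at 0, 12 and 24 h, while Itga9 averaged 0.205, 4.30 and 1.10 FPKM. The pseudocount of 1 shrinks the changes of Itga9, so the likeness does not hold for ratios of FPKM. For Itga6 the nearest were Ehmt2 (0.0924), a histone methyltransferase gene, and Pcyt1b (0.102), against a spread of 0.40. For Fn1 they were Sorl1 (0.182) and Mllt6 (0.188), against 0.70. Mllt6 averaged 22.4, 22.8 and 13.3 FPKM in delta cells and 28.2, 25.1 and 14.4 FPKM in WT cells. The members with little movement had Pja2 and Esyt1 (Itgav), Taf2 and Acad9 (Itgb1), and Odf2 and Pdcd6ip (Itgb5) as nearest genes, at 0.0947 to 0.152 against spreads of 0.23 to 0.26.

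Markers of other lineages were summed in each library. The 12 primitive endoderm markers summed to 1.15 to 5.57 FPKM in a library, with Ttr at 0 in 11 of the 12. The 10 primitive streak and mesoderm markers summed to 10.9 to 47.0 FPKM at 0 h and 2.79 to 5.53 FPKM at 12 and 24 h. The 10 trophoblast markers summed to 11.01 to 40.1 FPKM, with 1 to 4 of them at 1 FPKM or more in a library and Tpbpa at 0 in all 12 libraries. The sum joins genes that moved in opposite directions. At 24 h against 0 h Krt18 was called higher in both genotypes, while Cdx2 and Tfap2c were called lower, with Tfap2a in WT cells as well. The lower genes did not reach the minimum in the 24 h libraries, so they support no count.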

How the data were processed

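The members and gene lists were chosen with earlier results of these data known. Messenger RNA was sequenced in 12 libraries (6 groups of 2). FPKM values were used as the authors deposited them. Per the submitters' processing notes, the tools were cutadapt, STAR 2.5.2b, featureCounts 1.5.1 and edgeR 3.16.5 with build mm10; their roles and any counting by strand are not given in the sources used here. Low FPKM values were whole multiples of 1 read, which gave whole reads (tolerance 0.01) for 28656 of the 28657 genes above 0, and the depths. A gene of 1 kb had 0.0569 to 0.111 FPKM per read.

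Genes with at least 1 FPKM in 2 libraries entered limma 3.58.1 (R 4.3.3) on log2(FPKM + 1), with a mean for each group, a mean-variance trend and 2-sided Benjamini-Hochberg adjusted p-values over 13981 genes in each of 12 contrasts. Intervals are 95%. A test on simulated data with independent noise recovered the changes put in. It had none of the deviations that the real libraries share, so it checks the fitting code and does not support the calls. Gene positions come from GENCODE M21 on mm10. Named genes were the 9 members, up to 4 genes per list with the smallest adjusted p in WT cells, and in delta cells if called, at 24 h, and 2 genes most like each member. Lists covered other integrin chains, adaptors, ligands, membrane partners, and fibroblast, primitive endoderm, trophoblast and primitive streak markers. Alternatives were pseudocount, filter, scaling, voom weights on recovered reads, no trend, only the groups compared, a replicate block and libraries left out.

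Replicate numbers come from the titles. Deviations of same-numbered libraries correlated between the groups compared. The correlation was 0.70, 0.28 and 0.37 between delta and WT at 0, 12 and 24 h, and 0.26 to 0.46 between times within a genotype. The mitochondrial share was at most 0.647% for replicate 1 and at least 1.80% for replicate 2. Whether the numbers mark paired cultures or a technical difference was not tested. The main fit held no replicate term, and the block was used only as an alternative. Tables were made with Python 3.11.15, pandas 2.3.3 and matplotlib 3.10.9.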

Additional observations from a re-analysis of the deposited data

How the results depend on the processing

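With 2 libraries per group, few degrees of freedom limit every call, and low reads limit Itga9 at 0 h and Itgb3. The 14 calls of integrin genes, among them those of Itga9 at 12 h, kept their direction in all 320 alternative values and lost the threshold in 50. Itga9 was tested only through the groups where it was high, so its kept direction supports nothing. Of 1924 values of changes not called, 18 passed it with the same sign and 1 with the opposite one: Fn1 at 12 h in delta cells was -0.92 without both 0 h libraries of replicate 1, against 0.29 in the full fit and 1.503 without the 0 h library of replicate 2; the cause was not tested. When only the groups compared were fitted, with fewer libraries for the spread, the number of genes called (counts here include Itga9) was 0 for WT and 0 for delta cells at 12 h, 1 for delta cells at 24 h, and 1 (Itga9) for 24 h against 12 h in delta cells. Without the 3 WT libraries of replicate 1, an alternative chosen after seeing the data in which each WT group has 1 library that is assumed to vary like the other groups, 0 genes were called in WT cells at 12 or 24 h. Leaving out 1 library gave 1 to 4 called genes in WT cells at 12 h, 2 to 5 in delta cells at 12 h, 1 to 4 in delta cells at 24 h and 0 to 1 for 24 h against 12 h in delta cells. The lowest counts came without WT 12 h replicate 1 (1) and WT 0 h replicate 1 (2) in WT cells, without either delta 12 h library (2) and without either delta 24 h library (1). For 24 h against 12 h in delta cells, the count was 1 (Itga9) without either WT 12 h library and 1 (Fn1) without both 0 h libraries of replicate 1. These fits leave out no library of that comparison, so its differences stay the same and only the spread changes. With the replicate block Itga9 was called as well at 24 h against 12 h in delta cells, a count of 1, and at 24 h against 0 h in WT cells (adjusted p = 0.0288). The block changed no other call.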
